A study of Mus musculus with 22 samples.

Results

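The transcriptional effect of 2 h of doxycycline without an inserted transgene was measured in 4 of the 22 libraries of the series, across all 11208 genes of the expression table. The cells were NIH/3T3, an established line of mouse fibroblasts, carrying a doxycycline-inducible empty vector (the EV line). Every group was first starved for 48 h in medium with 0.25% serum. The EV 0 h group (2 replicates) was taken at the end of starvation, and the EV doxycycline 2 h group (2 replicates) after a further 2 h with 500 ng/ml doxycycline. For reference, the EV line received doxycycline at the same dose for 6 or 12 h, or 10% serum for 2 h. A parallel NIH/3T3 line with a doxycycline-inducible E2F1 construct (the E2F1 line) was measured at 0 h and after 2 h of the same dose. Each of these groups had 2 replicates. EV cells kept in low serum for the same 2 h without doxycycline are not analysed here, so the drug and the further time cannot be told apart. The labels do not say whether a line is a single clone, nor that replicates came from separate cultures, so p-values measure the spread between these samples, which may be technical.

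Doxycycline is a tetracycline that switches on engineered promoters and that also inhibits translation on mitochondrial ribosomes, so an empty-vector arm is the usual control for the drug itself. Cells that sense oxidants or electrophiles release the transcription factor NRF2 from its inhibitor KEAP1, and NRF2 then acts on genes for glutathione synthesis, thioredoxin, heme breakdown and NADPH supply through antioxidant response elements. In resting fibroblasts, growth-factor signals act through ERK and serum response factor (SRF) on immediate early genes, and this layer is low after starvation.

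The 4 libraries totalled 34014608 to 35600629 normalized counts, and the 2 replicates of EV 0 h were further apart than those of EV doxycycline 2 h, with 150 against 40 genes at least 2-fold apart. Fibroblast markers were present as labelled: 14 of 15 were in the table and summed to 1221779 to 1275460 at 0 h and 1231012 to 1475879 at 2 h. Of 10 epithelial markers 1 was in the table (Trp63), of 9 endothelial markers 0, and of 10 immune markers 2, which summed to 261 to 368 at 0 h and 254 to 283 at 2 h.

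After 2 h of doxycycline 552 genes were higher and 272 lower than at 0 h by limma on log2(normalized count + 1), at a Benjamini-Hochberg adjusted p of at most 0.05, which is 4.93% and 2.43% of the genes tested. With trends over GC content and gene length removed, a setting chosen after seeing the data, the split was 516 higher and 394 lower. In all 824 called genes the groups did not overlap, so a lack of overlap adds no support to a call. Most changes were small. The median size was 0.48 on the log2 scale among the rises and 0.52 among the falls, 352 rises and 163 falls were under 1.5-fold, and 71 rises and 30 falls reached 2-fold. The number of calls rested on each library of the comparison. Without EV doxycycline 2 h replicate 2 there were 157 calls (88 higher, 69 lower), and without EV doxycycline 2 h replicate 1, EV 0 h replicate 1 or EV 0 h replicate 2 there were 406, 505 and 453. Of the calls, 68 rises and 44 falls passed in all 4 of these fits.

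**Figure D1:**
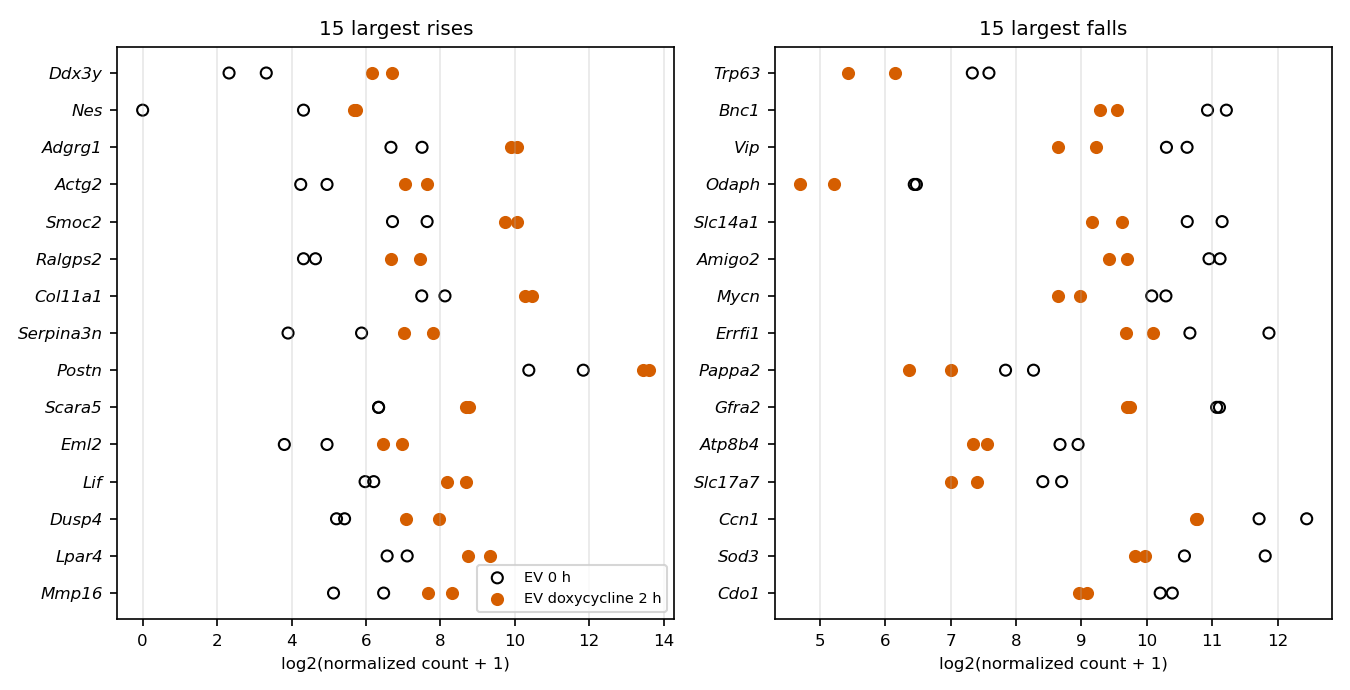
Log2(normalized count + 1) in each EV 0 h library (open circles) and each EV doxycycline 2 h library (filled circles) for the 15 largest rises and the 15 largest falls by the naming rule. The rule admits only genes whose groups do not overlap. The rises reach 3.61 on the log2 scale while the falls reach -1.67.

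Among the largest rises were Adgrg1, Col11a1, Smoc2 and Postn. Adgrg1 (chromosome 8, 94974751 to 95014217), an adhesion receptor coupled to G proteins, was at 101 and 181 normalized counts at 0 h, then at 961 and 1069 after 2 h. Its log2 change was 2.9 (SE 0.21, limma adjusted p 7.84e-07), and it passed in all 4 fits that leave out a library. Col11a1, a fibrillar collagen chain (chromosome 3, 114030540 to 114220718), stood at 278 and 180 at 0 h, then at 1244 and 1400 after 2 h, a log2 change of 2.56 (SE 0.22, limma adjusted p 3.72e-06). Both 2 h libraries of Col11a1 lay above all other libraries of the series, the highest of which had 797. Smoc2, a secreted calcium-binding matrix protein, was at 199 and 104 and then at 846 and 1064, a log2 change of 2.71 (SE 0.28, limma adjusted p 4.03e-05). Postn, the matrix protein periostin, was at 3668 and 1329 and then at 11079 and 12471, a log2 change of 2.41 (SE 0.43, limma adjusted p 0.00286). The 0 h libraries of Postn were themselves far apart.

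Contractile and matrix genes were among the rises. Of 6 measured myofibroblast markers, 3 rose and 0 fell. Actg2, the smooth muscle gamma-actin, was at 30 and 18 at 0 h and 132 and 197 at 2 h (log2 change 2.74, limma adjusted p 0.000398). Myl9, a myosin regulatory light chain, was at 188 and 241 and then at 825 and 864 (1.98, limma adjusted p 0.000177). Acta2, the smooth muscle alpha-actin, was at 6729 and 8028 and then at 17249 and 17556 (1.24, limma adjusted p 5.92e-05). Each of the 3 passed in all 4 fits that leave out a library. All 3 also differed between the lines by 2-fold or more, with the higher level in the E2F1 line (measured as in the next paragraph), and with such genes left out 0 of the 3 other markers were called. Of 32 measured collagen and matrix genes 6 rose and 0 fell (18.8% against 4.93% of all genes), with a list median of 0.2 against 0.02 over all genes. Beside Col11a1 and Postn these were Lum (1.72), Col5a2 (0.84), Fbn1 (0.4) and Col6a3 (0.33), and 26 members did not pass. With the genes 2-fold apart between the lines left out, 3 of 28 members rose. Of 19 measured TGF-beta targets and regulators 4 rose and 0 fell (21.1% against 4.93% of all genes), with a median of 0.31. The risers were Tgfb1 (0.72), Ltbp2 (0.67), Id2 (0.63) and Ltbp1 (0.45). After quantile normalization 4 members were higher and 1 lower, and the count also depended on single libraries. Tgfb1 encodes the ligand, Ltbp1 encodes a protein that holds it in the matrix, and Id2 is a target gene.

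Many of the largest rises were genes with a higher level in the E2F1 line. The difference between the lines was taken from libraries outside the comparison, as E2F1 0 h minus the mean of EV doxycycline 6 and 12 h. Of the 15 largest rises, 13 had a level in the E2F1 line at least 2-fold higher and 1 (Adgrg1) was at least 2-fold lower. The EV libraries in this measure had received doxycycline, and at 0 h Adgrg1 was not lower in the E2F1 line (181 and 278 against 101 and 181). Among all 552 rises 64 (11.6%) had such a higher level, against 375 of all 11208 genes (3.35%). The pattern was not confined to the 2-fold limit. At any size of difference, 474 of the 552 rises (85.9%) were higher in the E2F1 line, against 52.3% of all genes and 19.1% of the falls. The median difference between the lines was 0.31 for the rises, -0.25 for the falls and 0.02 for all genes. Those 64 genes changed by a median of 1.38 in the EV line at 2 h and by 0.07 in the E2F1 line. The 483 rises under 2-fold between the lines changed by a median of 0.45. With the genes 2-fold apart between the lines left out, a setting chosen after seeing the data, 765 calls were made (497 higher, 268 lower).

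The clearest case was Ddx3y, a Y-linked RNA helicase (chromosome Y, 1260771 to 1286629). It was at 9 and 4 normalized counts at 0 h, then at 103 and 71 after 2 h, a log2 change of 3.61 (SE 0.4, limma adjusted p 7.97e-05). The E2F1 line held 580 and 521 at 0 h, and the EV line 31 and 18 at 6 h and 9 and 4 at 12 h. So the level was high at 2 h and back at the 0 h values by 12 h. In the E2F1 line Ddx3y was lower at 2 h, at 329 and 316 (log2 change -0.77, limma adjusted p 0.4). Serum for 2 h also gave a raised level in the EV line, at 132 and 170.

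A rule on libraries other than the 0 and 2 h libraries of the EV line and the 2 h libraries of the E2F1 line set 19 genes as higher in the E2F1 line, and 14 of them had both EV 2 h libraries above both EV 0 h libraries (28.1% of all genes did). As a share of the distance from the EV 0 h mean to the E2F1 0 h mean, the EV 2 h replicates stood at a median of 14.5% and 11.9%. The share was uneven between genes. Lpar4, a receptor for lysophosphatidic acid, had moved 41.3% and 69.8% of the way (137 and 94 at 0 h, 429 and 645 at 2 h), Ddx3y 17.7% and 11.9%, and Tmem176b, a membrane protein of the MS4A family, 2.53% and 4.38%. Brinp3, with 4 and 11 at 0 h against 396 and 433 in the E2F1 line, was at 12 and 11 after 2 h, or 1.11% and 0.86% of the way. In the E2F1 line 14 of the 19 genes had both 2 h libraries below both 0 h libraries and 2 had both above, against 23.1% and 27.3% of all genes. The rule asked for high E2F1 0 h libraries and left out those at 2 h, so a lower 2 h level was favoured in advance. In a further setting the E2F1 0 h mean times the median share was subtracted from each EV 2 h library. The rest was divided by 1 minus the share, and values below 0 were set to 0. This gave 1061 calls (646 higher, 415 lower) and again 11 NRF2 members higher. Ddx3y then changed by 1.04 and did not pass (limma adjusted p 0.226), but it is 1 of the 19 genes that set the share, so this value follows in part from the setting. What else moved with the difference between the lines was not tested.

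**Figure D2:**
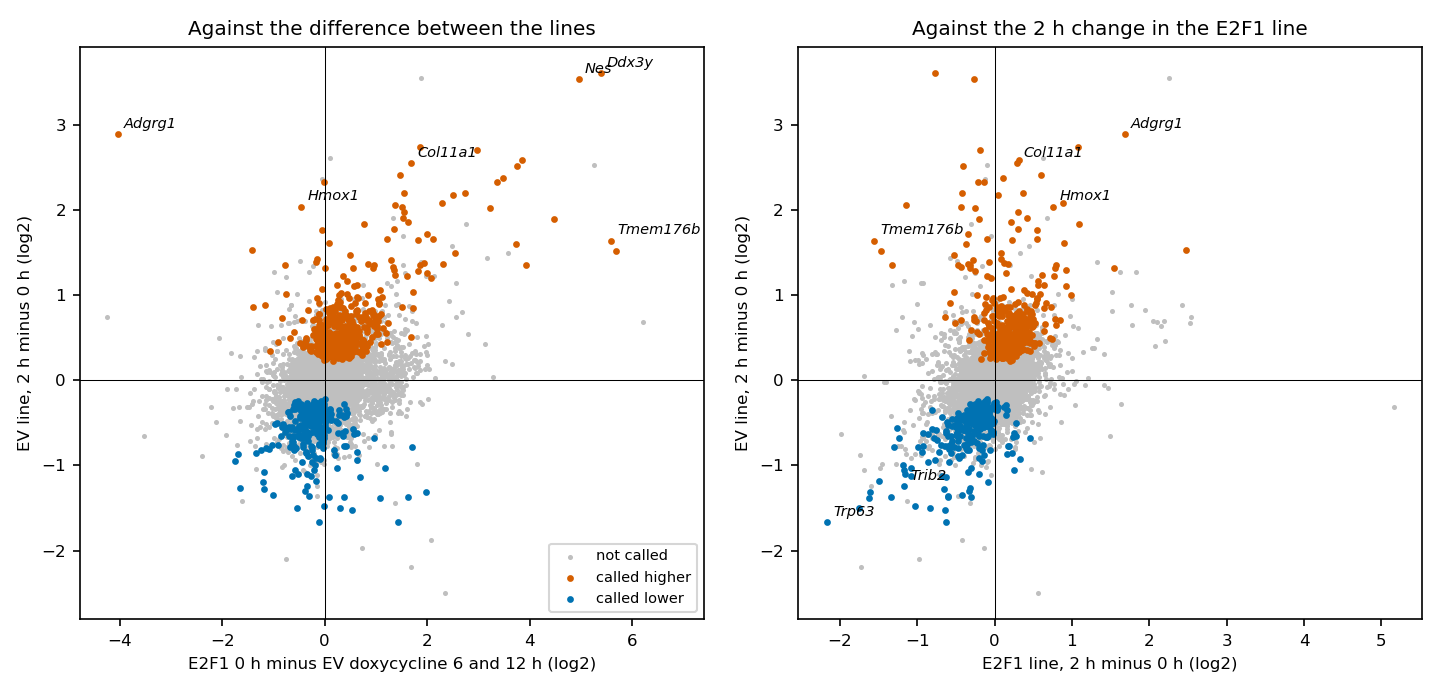
Log2 change of each gene with 2 h of doxycycline in EV cells (vertical axes) against the log2 difference between the lines in other libraries (left) and against the log2 change of the E2F1 line after 2 h (right). Called genes are coloured. The strongest rises on the left sit at the right-hand side, with Ddx3y at 5.38 and Nes at 4.95, and Adgrg1 at -4.03, while Hmox1 lies near the middle at -0.46.

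NRF2 targets were also among the rises, and of the called members 1 (Nqo1) was 2-fold apart between the lines. Of 21 measured members of the NRF2 list 11 rose and 0 fell (52.4% against 4.93% of all genes), and the list median was 0.56 against 0.02 over all genes. The count was also 11 higher and 0 lower at equal totals and after quantile normalization. In 18 of the 21 both 2 h libraries were above both 0 h libraries, as in 28.1% of all genes (22.6% had both below). Hmox1, the heme oxygenase that opens the heme ring (chromosome 8, 75093621 to 75100589), was at 1389 and 1052 at 0 h, then at 4082 and 6066 after 2 h, a log2 change of 2.04 (SE 0.5, limma adjusted p 0.0197). Hmox1 varied widely between replicates at later times, with 3289 and 1408 at 6 h. It passed in 1 of the 4 fits that leave out a library, with a limma adjusted p of 0.0488 to 0.183.

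Genes of glutathione synthesis rose together with it. Gclc, the catalytic subunit of glutamate-cysteine ligase, was at 545 and 633 and then at 1226 and 1327 (log2 change 1.12, SE 0.25, limma adjusted p 0.0118). Gclm, its modifier subunit, was at 2254 and 2275 and then at 3181 and 4051 (0.66, SE 0.17, limma adjusted p 0.0208). Slc7a11, the cystine importer, was at 615 and 628 and then at 1083 and 1576 (1.07, SE 0.3, limma adjusted p 0.0383). None of these groups overlapped, as in every called gene.

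The thioredoxin branch behaved in the same direction. Txnrd1, thioredoxin reductase, was at 5557 and 6084 and then at 8789 and 11059 (0.76, SE 0.15, limma adjusted p 0.00544). Srxn1, which repairs oxidised peroxiredoxins, was at 2846 and 3295 and then at 4616 and 6084 (0.79, SE 0.14, limma adjusted p 0.00244). Prdx1, a peroxiredoxin, was at 15079 and 17436 and then at 23212 and 32777 (0.77, SE 0.16, limma adjusted p 0.00778). The other called members were Nqo1, a quinone reductase (0.85), the metallothionein Mt1 (0.81), and the pentose phosphate enzymes Pgd (0.51) and Taldo1 (0.45). In 10 of the 11 called genes replicate 2 was the higher of the 2 h libraries.

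The 10 members that did not pass lay between -0.08 and 0.61. They included Nfe2l2, which encodes NRF2 itself, at 3456 and 3680 and then 3325 and 3404 (-0.08, limma adjusted p 0.53), and Keap1 (0.1, limma adjusted p 0.618). The ferritin chains Fth1 and Ftl1 were at 0.2 and 0.13 (limma adjusted p 0.283 and 0.364). Leaving out a library left 4, 6 and 7 called members without EV 0 h replicate 1, EV 0 h replicate 2 and EV doxycycline 2 h replicate 1, and 0 without EV doxycycline 2 h replicate 2. In that last fit, with limma, the number of calls over all genes also fell to 157.

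The stretches before the start sites of 3 of these genes are shown because each holds the core of an antioxidant response element. The searched core was TGACNNNGC on both strands, in RefSeq windows from 250 bases before to 50 after each start. It occurred in 8 of 18 list members with a window (44.4%) and in 5 of the 9 that rose. The share was 17.1% of the genes tested, 17.6% of all rises and 18.4% of all falls. Of all 32851 windows 12.4% held it. The last 150 bases before the start follow 5′ to 3′, with the match in capitals, for Gclm, Prdx1 and 1 of the annotated starts of Txnrd1.
Gclm (GRCm38.p6, chr3:122245407-122245556, plus strand): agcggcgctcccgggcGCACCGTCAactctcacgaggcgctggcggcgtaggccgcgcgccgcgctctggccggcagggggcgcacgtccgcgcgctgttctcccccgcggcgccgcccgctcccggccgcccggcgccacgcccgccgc
Prdx1 (GRCm38.p6, chr4:116685449-116685598, plus strand): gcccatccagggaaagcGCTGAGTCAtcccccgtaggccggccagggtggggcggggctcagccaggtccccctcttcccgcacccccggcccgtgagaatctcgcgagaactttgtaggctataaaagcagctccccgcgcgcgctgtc
Txnrd1 (GRCm38.p6, chr10:82859056-82859205, plus strand): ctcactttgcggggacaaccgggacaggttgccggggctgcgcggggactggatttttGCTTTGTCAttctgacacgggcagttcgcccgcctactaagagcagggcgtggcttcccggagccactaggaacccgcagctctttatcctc
The matches began 134, 133 and 92 bases before the start. A match of letters is not a measured binding site, and Hmox1 is not shown.

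**Figure D3:**
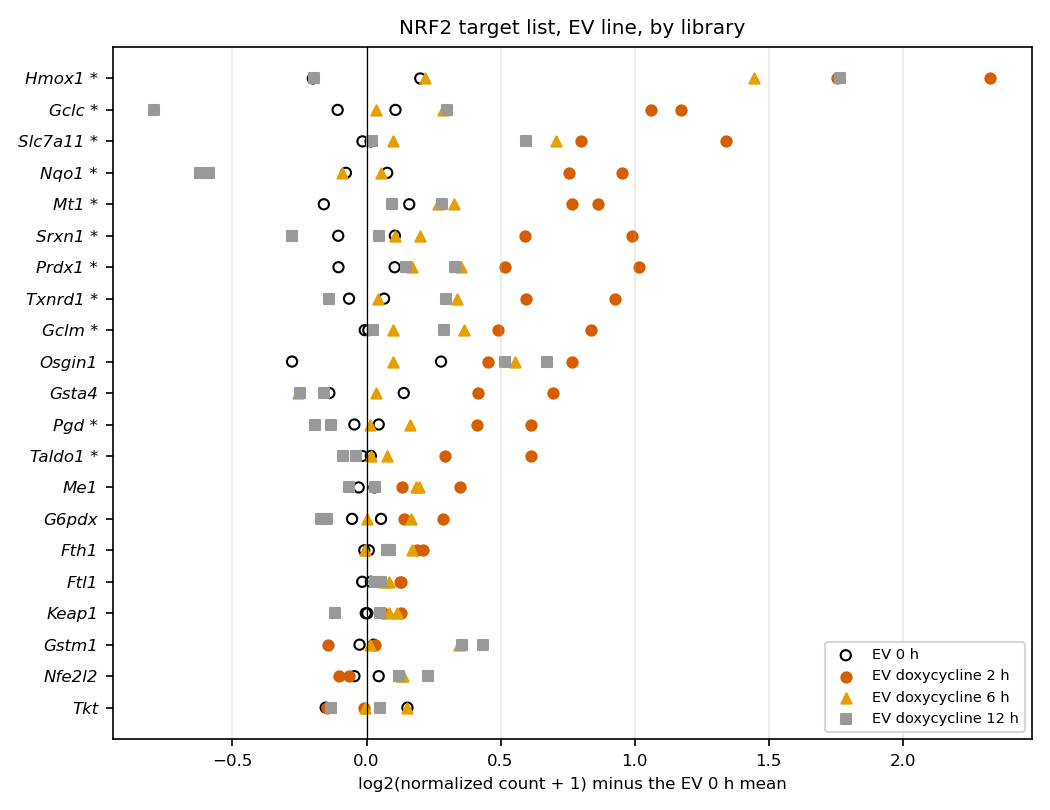
Log2(normalized count + 1) minus the EV 0 h mean for the 21 measured NRF2 list members in each EV library at 0 h and after 2, 6 and 12 h of doxycycline, ordered by the 2 h change. Asterisks mark the 11 members called at 2 h, whose changes run from 0.45 (Taldo1) to 2.04 (Hmox1). Most 6 and 12 h points lie closer to 0.

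Few genes of the NRF2 list were called at the later times. Few genes of the whole table were called higher at those times either, so these counts say little about the list. At 6 h of doxycycline 15 genes of the whole table were higher and 0 lower than at 0 h (0.134% and 0.0%), with 661 genes at an unadjusted p of at most 0.05. At 12 h 84 were higher and 383 lower (0.749% and 3.42%). Of the NRF2 list 0 members were called at 6 h and 1 at 12 h, and the list medians were 0.15 and 0.04. Tested directly, 2 h stood above 6 h in 427 genes and below it in 297 (3.81% and 2.65%), or 422 and 484 with the GC and length trends removed and 567 and 253 at equal totals, with 5 NRF2 members higher and 0 lower at 2 h. Against 12 h, 1652 genes were higher at 2 h and 895 lower (14.7% and 7.99%), or 1385 and 1325 with those trends removed and 1507 and 1251 after quantile normalization, with 11 NRF2 members higher and 2 lower. The comparisons with 0 h share the EV 0 h libraries, and those with 2 h share the EV doxycycline 2 h libraries.

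Genes of ribosome assembly also rose. Of 32 measured ribosome biogenesis genes 12 rose and 0 fell (37.5% against 4.93% of all genes), with a list median of 0.31. Their median difference between the lines was 0.36, against 0.02 over all genes. At 0 h 15 of the 32 were called higher in the E2F1 line and 0 lower, against 993 and 691 of all 11208 genes. That test shares the EV 0 h libraries. With the genes 2-fold apart between the lines left out, 13 of 32 members rose. Rrp12, a factor for export of pre-ribosomes, was at 856 and 813 and then at 1441 and 1362 (log2 change 0.75, SE 0.14, limma adjusted p 0.00326), and it passed in all 4 fits that leave out a library. Nop2, an RNA methyltransferase of the nucleolus, changed by 0.59, and Utp20, part of the small-subunit processome, by 0.52. The count of called members was 4, 7, 7 and 1 when EV 0 h replicate 1, EV 0 h replicate 2, EV doxycycline 2 h replicate 1 and EV doxycycline 2 h replicate 2 were left out, and 3 when only the groups compared were fitted. The messages of the ribosomal proteins themselves did not rise: of 55 measured 0 rose and 5 fell (9.09% against 2.43% of all genes), with a median of -0.22. Rpl14 changed by -0.49 and Rps27 by -0.48. Ribosomal protein genes have many near-identical processed copies, so their counts are uncertain to that extent.

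Amino acid stress genes were a further list with rises. Of 28 measured genes of the ATF4 and mitochondrial stress list 6 rose and 0 fell (21.4% against 4.93% of all genes), with a median of 0.36. The 6 include Slc7a11, which is also counted among the NRF2 rises. Slc3a2, the heavy chain of amino acid exchangers and partner of Slc7a11, was at 5216 and 4515 and then at 6852 and 7942 (0.6, SE 0.11, limma adjusted p 0.00335). Atf4, the factor that drives this response, was at 7330 and 7244 and then at 9101 and 9832 (0.38, SE 0.1, limma adjusted p 0.0293). Trib3 and Chac1, sensitive targets of ATF4, were at 1.01 and 0.68 (limma adjusted p 0.0959 and 0.185). The later values were 1.87 and 1.61 for Trib3 at 6 and 12 h, and 1.76 and 1.01 for Chac1. The count of called members was 0 without EV doxycycline 2 h replicate 2.

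The mitochondrial genome gave 2 different pictures. The 10 measured mitochondrial messages included 0 calls in either direction at 2 h, with a median of -0.03. For mt-Co1, a subunit of cytochrome oxidase, the libraries were at 285905 and 320424 and then at 295923 and 345963 (0.08, limma adjusted p 0.764). The ribosomal RNAs were lower. For mt-Rnr1, the small-subunit RNA (mitochondrial chromosome, 70 to 1024), the values were 17999 and 19711 at 0 h and 8852 and 9338 at 2 h (log2 change -1.05, SE 0.19, limma adjusted p 0.00345). For mt-Rnr2, the large-subunit RNA, they were 22340 and 24925 and then 12214 and 12638 (-0.93, SE 0.19, limma adjusted p 0.00662). Both genes were apart between the groups, as was every called gene. In the E2F1 line the changes were 0.25 and 0.33 (limma adjusted p 0.61 and 0.446), and the difference between the lines did not pass (limma adjusted p 0.058 for each). These libraries were made by poly(A) selection, and mt-Rnr1 also ran from 11465 to 23111 between the 2 serum replicates at 2 h. Of nuclear genes for respiratory chain subunits, 2 of 30 rose (6.67%) and 0 fell. Of 45 mitochondrial ribosomal protein genes 0 rose and 1 fell (2.22%). These counts are low or near the shares of all genes, 4.93% higher and 2.43% lower.

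**Figure D4:**
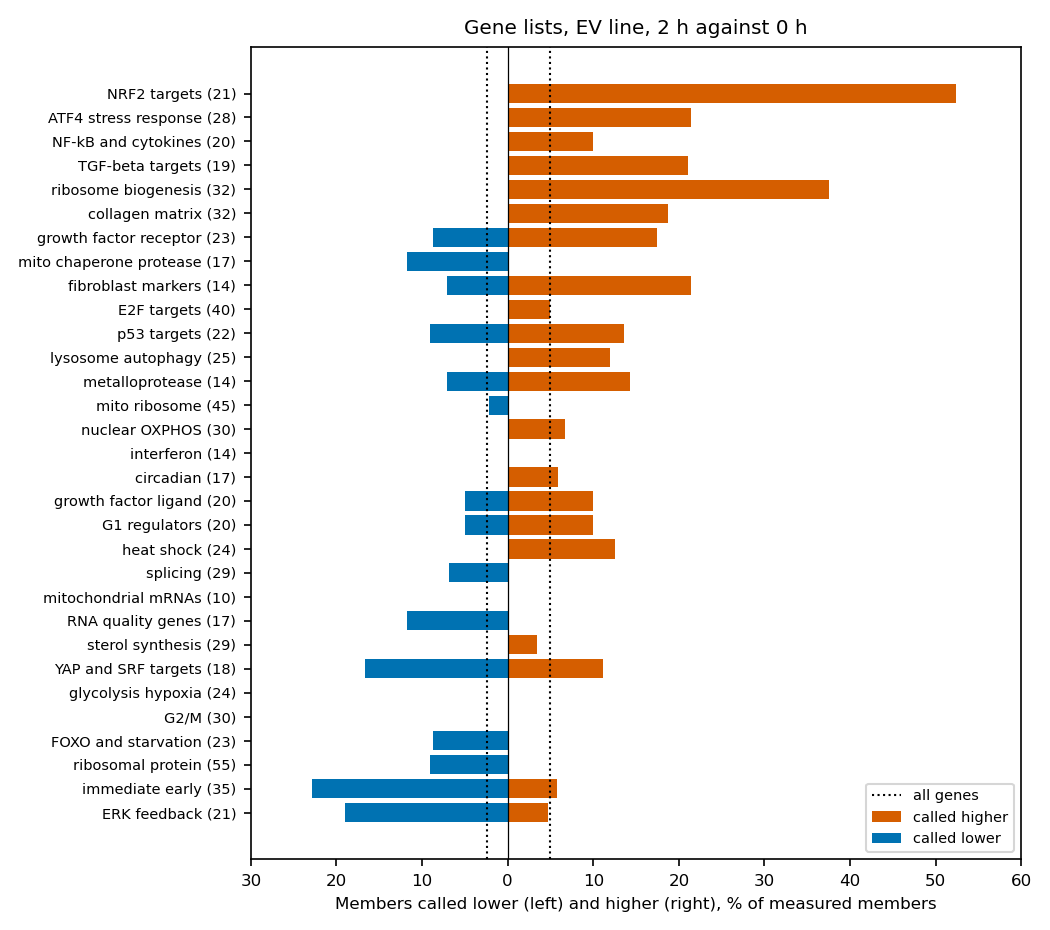
Share of the measured members of each gene list (number in brackets) called higher (right) or lower (left) in EV cells at 2 h of doxycycline, for lists with at least 10 measured members, ordered by list median. Dotted lines give the shares over all genes, 4.93% and 2.43%. The NRF2 list reaches 52.4% higher and the immediate early list 22.9% lower.

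Among the largest falls were Trp63, Bnc1, Mycn and Gfra2. Bnc1, a zinc finger transcription factor, was at 1948 and 2379 normalized counts at 0 h, then at 621 and 743 after 2 h, a log2 change of -1.66 (SE 0.21, limma adjusted p 0.000283). Mycn, a relative of Myc, was at 1078 and 1253 and then at 397 and 504 (-1.38, SE 0.21, limma adjusted p 0.000791). Gfra2, a coreceptor for neurturin, was at 2211 and 2146 and then at 833 and 852 (-1.37, SE 0.17, limma adjusted p 0.000262). The groups of these 3 genes did not overlap, as in every called gene. Trib2, a pseudokinase, was at 4071 and 4694 and then at 1868 and 1817 (-1.25, SE 0.11, limma adjusted p 5e-06). Trp63, a p53-family factor and the only epithelial marker measured, was at 160 and 191 and then at 70 and 42 (-1.67, SE 0.33, limma adjusted p 0.00553). At 12 h of doxycycline Trib2 was at 3584 and 4219 and Bnc1 at 1528 and 1441, and 2 h was below 12 h in both (limma adjusted p 1.08e-05 and 0.00141).

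Of 35 measured immediate early genes 8 fell and 2 rose (22.9% and 5.71%), 25 did not pass, and the list median was -0.3. Srf, the serum response factor, was at 2675 and 4520 at 0 h, then at 1812 and 1823 after 2 h (log2 change -0.94, SE 0.19, limma adjusted p 0.00774). Egr1, an early zinc finger factor, was at 3313 and 3708 and then at 2001 and 2073 (-0.78, SE 0.23, limma adjusted p 0.0434), and Fos at 145 and 91 and then 43 and 100 (-0.8, limma adjusted p 0.3). The groups of Fos overlapped, and those of Srf and Egr1, like those of every called gene, did not. The risers were Dusp4 (2.2) and Arc (1.35). Of 21 ERK feedback genes 4 fell (Errfi1 -1.38, Spry2 -0.68, Dusp6 -0.67 and Spred1 -0.41), and Dusp4 rose. These are 19.0% and 4.76%, against 2.43% and 4.93% of all genes. Dusp4 and Dusp6 are also called members of the immediate early list. The count of called ERK feedback members depended on single libraries. The immediate early count was 5 lower without EV 0 h replicate 1, 1 higher without EV 0 h replicate 2, 1 lower without EV doxycycline 2 h replicate 1 and 0 without EV doxycycline 2 h replicate 2.

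The promoter of Srf is shown because it holds CArG boxes, the motif that SRF itself recognises. In the last 150 bases before its start, from RefSeq and 5′ to 3′, the 2 matches are in capitals and begin 82 and 62 bases before the start.
Srf (GRCm38.p6, chr17:46556163-46556312, minus strand): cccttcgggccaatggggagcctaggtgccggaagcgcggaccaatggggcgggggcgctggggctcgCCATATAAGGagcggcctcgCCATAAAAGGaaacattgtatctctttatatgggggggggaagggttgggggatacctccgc
A CArG box was found, on either strand, in 1.63% of all windows, in 1.93% of the windows of genes that fell and in 1 of 7 fallen immediate early genes, which was Srf. These 7 are the fallen list members with a window in the table.

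Most immediate early genes were higher after serum than after doxycycline. After 2 h of serum 3927 genes were higher and 3596 lower than after 2 h of doxycycline (35.0% and 32.1%), or 2114 and 6050 with libraries scaled to equal totals, which moved the median of all genes from 0.02 to -0.38. Of the 35 immediate early genes 31 were higher and 2 lower in serum, or 30 and 2 at equal totals. Egr1 was an exception, at 868 and 838 in serum, below both 0 h and 2 h of doxycycline, and Dusp4 and Arc, which rose with doxycycline, were also above 0 h in serum (log2 change 6.46 and 4.47). Srf stood at 12403 and 13786 in serum against 1812 and 1823 in doxycycline. The NRF2 list had 6 members higher and 3 lower in serum, but 3 higher and 10 lower at equal totals and 3 higher and 6 lower after quantile normalization, so its direction against doxycycline flips with the scaling. For single genes, Hmox1 was at 10327 and 11908. The ribosome biogenesis list had 31 of 32 higher in serum, and 30 at equal totals. Against 0 h, the 552 genes that rose with doxycycline had a median of 1.16 after 2 h of serum and the 272 that fell had -0.82, and these values share the EV 0 h libraries with the doxycycline change.

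The E2F1 line gave the same 2 h exposure in libraries that do not overlap with those of the EV line. There 97 genes were higher and 111 lower at 2 h (0.865% and 0.99%). Of the 552 genes that rose in the EV line 468 were also higher in the E2F1 line at 2 h (84.8%, against 53% of all genes), with a median change of 0.18, and 35 of them were called higher. Of the 272 that fell 252 were also lower (92.6%, against 47.0% of all genes), with a median of -0.26, and 51 were called lower. All 11 NRF2 genes that rose in the EV line were higher in the E2F1 line, by 0.09 to 0.75, and 0 of the 21 list members were called there. The difference between the lines in these 11 was -0.29 to -1.29 and did not pass in any of them (smallest limma adjusted p 0.351). Trib2 changed by -1.25 in the EV line and -1.17 in the E2F1 line (limma adjusted p of the difference 0.964), and the E2F1 libraries were at 2915 and 2937 and then 1231 and 1370. Adgrg1 rose in the E2F1 line by 1.69 (limma adjusted p 0.000677), from 181 and 278 to 751 and 698. Of the 35 immediate early genes 10 fell there and 0 rose.

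**Figure D5:**
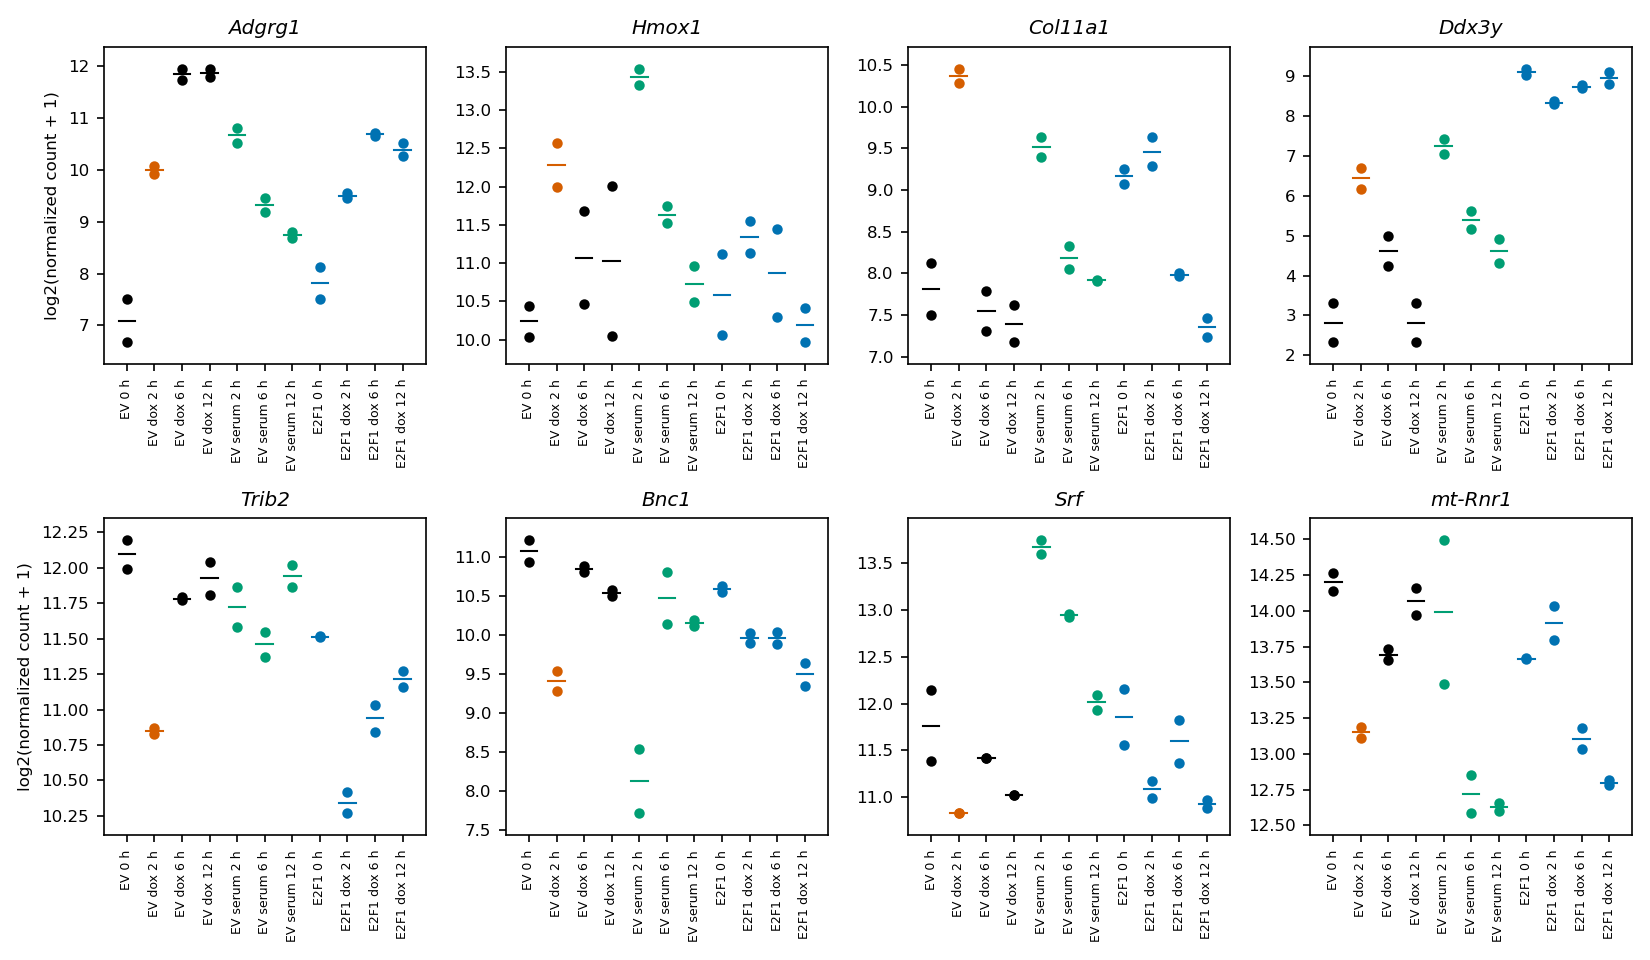
Log2(normalized count + 1) of 8 genes in every library (points) with the mean of each group (bars), for the EV line with doxycycline (black, 2 h in orange) or serum (green) and the E2F1 line with doxycycline (blue). Adgrg1 is higher still at 6 h and 12 h in the EV line, where those 2 groups overlap, whereas Col11a1, Ddx3y and Trib2 are at or near their 0 h level by 12 h.

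Among all genes 6 changed more and 10 changed less, in signed terms, in E2F1 than in EV cells at 2 h (0.0535% and 0.0892%), or 5 and 15 at equal totals, and these included 10 of the 552 rises and 3 of the 272 falls of the EV line. Adgrg1 was higher at the later times in the EV line, at 3410 and 3907 at 6 h and 3536 and 3931 at 12 h, and 2 h was below both (limma adjusted p 0.000121 and 2.84e-05). In order of level over all groups, EV 0 h was lowest, next to E2F1 0 h (181 and 278), whose range touched it at 181. EV doxycycline 6 and 12 h were highest and overlapped each other. Serum at 2 h gave 1797 and 1467, above doxycycline at 2 h. The 5 genes most like Adgrg1 by Pearson correlation over the 22 libraries, which share groups, were Sh3rf1 (r 0.725), Ddx51 (0.7), Src (0.699), Dnajb12 (0.673) and Map4k3 (0.645).

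Few E2F target and G2/M genes were called in the EV line at 2 h. E2f1 itself, the mouse gene, was at 1635 and 1655 and then at 1409 and 1307 (-0.28, limma adjusted p 0.134). Of 40 E2F targets 2 rose and 0 fell (5.0% against 4.93% of all genes), namely Mcm2 (0.45) and Mcm6 (0.51) of the replicative helicase. Of 30 G2/M genes 0 were called. The 0 h libraries were far apart in these lists. They summed to 37932 and 56199 for E2F targets and to 41436 and 74952 for G2/M genes. The 2 h libraries lay between, at 47183 to 51629 and 47022 to 52505. The lack of calls thus cannot show that these levels stayed the same. Of 20 G1 regulators 2 rose and 1 (Mycn) fell (10.0% and 5.0%, against 4.93% and 2.43% of all genes). The cyclin E genes Ccne1 and Ccne2 changed by 0.49 and 0.32 (limma adjusted p 0.187 and 0.493), against 1.33 and 1.42 in the E2F1 line (limma adjusted p 0.00368 and 0.0063). The difference between the lines in Ccne1 did not pass (limma adjusted p 0.45). Cdkn1a, the cell cycle inhibitor p21, rose by 0.5 (limma adjusted p 0.00715) and by 0.72 in the E2F1 line (limma adjusted p 0.00122). Of the 14 interferon-response genes and the 24 glycolysis and hypoxia genes measured, 0 were called by limma at 2 h.

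The authors' deposited table for this comparison lists 37 genes, 32 higher and 5 lower, all with an absolute log2 change of at least 2.03. Of these 22 are in the expression table, and limma called 17 of them, all higher, and gave all 22 the same sign. Both comparisons are of the same groups and the list holds only large changes, so the same sign was favoured in advance. The authors' deposited table puts Hmox1 at 2.04 (adjusted p 0.00153) and Adgrg1 at 2.89 (adjusted p 1.71e-21). Among the genes that the authors' deposited table lists and limma did not call is Atf3, a stress-induced factor, at 55 and 71 and then 310 and 483 (limma log2 change 2.61, adjusted p 0.0534). Cxcl1, a chemokine, is another (limma log2 change 2.37, adjusted p 0.0692). For 6 h the authors' deposited table lists 2 genes and for 12 h 4.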

How the data were processed

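The series holds 22 RNA libraries from NIH/3T3 cells, with 2 in each of 11 groups, of which the 4 EV libraries at 0 and 2 h of doxycycline are described here. Groups and replicate numbers were taken from the labels. Libraries were made by poly(A) selection and read as 150 bp pairs, per the labels' protocols. FastQC, Trimmomatic, HISAT2, featureCounts and DESeq2 are named with build mm10, per the submitters' processing notes. Versions, the use of strand in counting and the annotation release are not given in the sources used here. The deposited expression table holds normalized counts, which the authors had scaled and rounded to whole numbers, so they were treated as a score and not as raw counts. The authors' deposited comparison tables hold a log2 fold change and an adjusted p-value for each gene they list, and they were used only for the comparison of calls.

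Values were analysed as log2(normalized count + 1) with limma 3.58.1 in R 4.3.3. The model had 11 group means over the 22 libraries and 11 residual degrees of freedom, with empirical Bayes moderation with a trend, and Benjamini-Hochberg adjustment over 11208 genes per comparison at a threshold of 0.05. Fold changes of low genes are understated on this scale. The lowest gene mean over all libraries was 99.6, so rarer genes are outside the table. The depth in raw counts is unknown, and each group has 2 replicates, which limits the precision. The members and the gene lists were chosen with earlier results of these data known. Named were the 15 largest rises and the 15 largest falls among calls whose higher group averaged at least 50 and whose groups do not overlap, a fixed set, up to 6 called members of each list, and 5 genes most like Adgrg1. Other genes (further members of the NRF2 list, Brinp3, Tmem176b, Keap1, Atf3 and Cxcl1) were chosen after their values were seen. Alternatives were a pseudocount of 8, a mean of at least 500, quantile normalization, equal totals and the replicate block. Others were only the groups compared, only the EV line, and a minimum change of 2-fold. The genes set as higher in the E2F1 line were left out in a further fit. In another, a share of the E2F1 0 h mean was subtracted from the EV 2 h libraries. Each replicate of the groups compared was also left out in turn. Removing GC and length trends, leaving out genes 2-fold apart between the lines, leaving out the E2F1 2 h libraries, and leaving out replicates of EV doxycycline 6 h, 12 h or serum 2 h were chosen after seeing the data. The 19 genes set as higher in the E2F1 line had the lowest of the E2F1 libraries at 0, 6 and 12 h at least 2-fold above the highest of the EV libraries at 6 and 12 h of doxycycline and at 2, 6 and 12 h of serum. The code was tested on simulated data. Of the gene identifiers 10977 matched GENCODE M21 (GRCm38, the same assembly as mm10) with the same version. Exons of Amigo2, Eml2, Gclm, Fbn1, Ltbp2, Cdkn1a, Tmem176b, mt-Co1 and others overlap those of other annotated genes, so their counts are uncertain to that extent. Motifs were sought in promoter sequences from RefSeq (GRCm38.p6). No pair of replicates held identical columns.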

Additional observations from a re-analysis of the deposited data

Results flagged for a closer look

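The 2 h changes were compared between the lines by testing the E2F1 change minus the EV change with limma, and 16 genes had an adjusted p of at most 0.05 (from 0.00375 to 0.0483). In 10 of them the E2F1 change was the lower. On the log2 scale Ddx3y differed by -4.38, the membrane proteins Tmem176b and Tmem176a by -3.2 and -3.0, the matrix protein Smoc2 by -2.9, the asparaginase gene Aspg by -2.68 and the collagen Col11a1 by -2.26. Smaller differences were found for the chemokine Cxcl12 (-1.76), Vamp5 (-1.72), the integrin Itgb3 (-1.67) and Vps37b (-0.85). In 6 genes the E2F1 change was the higher: the RNA-binding Mex3b (1.55), Asb4 (1.34), the nuclear receptor Nr2f1 (1.08), the planar polarity gene Prickle1 (1.03), the acetyltransferase subunit Naa16 (0.97) and the guidance ligand Sema3a (0.62).

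Of these 16 genes 10 were among the EV rises and 3 among the EV falls. Col11a1 changed by 2.56 in the EV line and 0.29 in the E2F1 line (limma adjusted p 3.72e-06 and 0.586), and Nr2f1 by -0.86 and 0.22 (limma adjusted p 0.000791 and 0.451). Mex3b changed by -0.09 in the EV line and 1.46 in the E2F1 line (limma adjusted p 0.847 and 0.00118). In all 16 the sign was opposite to that of the difference between the lines, E2F1 0 h minus the mean of EV doxycycline 6 and 12 h, which was 5.38 for Ddx3y, 1.69 for Col11a1 and -0.37 for Nr2f1. The E2F1 0 h libraries enter the 2 values with opposite sign, which favours this pattern in advance. The part of the difference between the lines was not tested. With 1 library left out the count ran from 2 (without E2F1 0 h replicate 2) to 22 (without EV 0 h replicate 1).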

How the results depend on the processing

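Against 824 calls for EV 2 h against 0 h, 851 were made with a pseudocount of 8, 757 with a mean of at least 500, 902 at equal totals and 1025 after quantile normalization, and the NRF2 count was 10 or 11 in the alternatives that kept all 4 libraries, other than the 2-fold limit. Requiring a 2-fold change left 101 calls, or 42 for E2F1 2 h against 0 h (208), 6 for EV 6 h (15), 170 for EV 12 h (467), 93 for 2 h against 6 h (724), 343 for 2 h against 12 h (2547), 2600 for serum (7523) and 208 for the lines at 0 h (1684), and called members were 3 for NRF2 (11), 0 for ribosome biogenesis (12) and 2 for immediate early genes (10). Fitting only the EV line gave 526, 248 for EV 12 h, 457 for 2 h against 6 h and 6 immediate early members. Fitting only the groups compared gave 400, 596 for the E2F1 line, 45 for the difference between the lines (16) and 3 ribosome biogenesis members. Quantile normalization gave 330 for the E2F1 line and 51 for the difference, which a mean of at least 500 took to 5. Removing a share of the line difference turned Tmem176a to -4.45, Tmem176b to -5.17 and Brinp3 to -2.95. For these 3 genes the amount subtracted exceeded both 2 h values, which were set to 0, so the falls follow from the setting. In the other cases the cause was not tested.

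Leaving out 1 library leaves 1 in its group, which is assumed to vary like the other groups. The counts then ran from 157 to 505 for EV 2 h against 0 h, 26 to 120 for the E2F1 line, 2 to 22 for the difference, 8 to 30 for 6 h, 26 to 803 for 12 h (without EV 0 h replicate 2 and replicate 1), 205 to 418 for 2 h against 6 h, 1202 to 1465 for 2 h against 12 h, 6577 to 6856 for serum and 684 to 1236 for the lines at 0 h. Called members ran from 0 to 7 for NRF2, 1 to 7 for ribosome biogenesis and 0 to 5 for immediate early genes. Without EV doxycycline 2 h replicate 2, 97 of the gene results tested no longer passed and 79 kept their call or lack of one.

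The labels do not say that a replicate number marks a shared batch. The deviations of same-numbered libraries correlated above 0.1 in 18 of 55 pairs of groups (r from -0.277 to 0.455), and r was -0.014 between EV 0 h and EV 2 h. With the replicate block the calls were 950 (619 higher, 331 lower), and 33 for the difference between the lines.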
